A study of Mus musculus with 4 samples.

Results

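The subcortical maternal complex is a large protein assembly that lies beneath the plasma membrane of the mammalian oocyte. The transcripts of 6 of its subunits and partners, *Nlrp5*, *Ooep*, *Tle6*, *Khdc3*, *Padi6* and *Zbed3*, were examined in cultured mouse oocytes. They were chosen by gene name, as known members of the complex and of the cytoplasmic lattices, and all 6 were found among the 26631 genes of the table. Denuded oocytes, freed of their cumulus cells, were cultured with HDACi 4b, which blocks HDAC1 and HDAC3, enzymes that take acetyl groups off histones, or with the solvent DMSO as control. The mice of both groups were wild type, on the C57BL/6 background and at postnatal day 24, with 2 libraries in each group (n = 2). By the study's methods RNA was taken from many oocytes per group, but how these were divided between libraries is not given, and the labels state neither a dose nor a time. Whether the replicates are separate cultures or animals is not stated either, so a p-value here reflects the scatter of these libraries alone, which may be technical.

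In the complex, the proteins NLRP5 (also called MATER), OOEP (FLOPED) and TLE6 form a core to which KHDC3 (FILIA) and ZBED3 bind. PADI6, an oocyte member of the peptidylarginine deiminases, is needed for the cytoplasmic lattices, the fibres that store maternal proteins in the egg. Mouse mothers that lack *Nlrp5*, *Ooep*, *Tle6* or *Padi6* produce embryos that stop early in cleavage, and these genes are therefore known as maternal effect genes. The comparison asks whether the stored message for this complex differs after the oocyte itself has been exposed to the inhibitor.

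Reads had been recovered from the deposited RPKM values (reads scaled to the length of the exons and to the depth of the library), and the libraries held 13478187 to 14903543 reads. The oocyte label was met by its markers. *Zp3*, a zona pellucida glycoprotein, was at 2974 and 2555 RPKM with HDACi 4b and 3922 and 2914 RPKM with DMSO, while the 6 theca and stroma markers together stayed between 0.310 and 0.532 RPKM. The 11 granulosa and cumulus markers measured summed to 9.32 and 8.14 RPKM with HDACi 4b and to 7.84 and 9.92 RPKM with DMSO, and *Foxl2*, a defining factor of granulosa cells, was at 0 in 3 of the 4 libraries. *Cyp19a1*, the aromatase of granulosa cells, was detected in all 4 at 3.03 to 3.49 RPKM, as was *Nr5a2* at 2.27 to 3.52 RPKM. The 7 macrophage and blood markers measured varied more, at 48.2 and 11.5 RPKM with HDACi 4b and 28.0 and 16.0 RPKM with DMSO, *Lyz2* and *Csf1r* being the most abundant. *Cd14*, of the same list, was at 1.15 and 1.04 RPKM with HDACi 4b and 1.98 and 2.5 RPKM with DMSO, with a log2 fold change of -0.90 (limma unadjusted p = 0.0104, adjusted p = 1.0). The part of these markers in the values below was not tested, and in bulk RNA fewer cells of a type and less RNA per cell cannot be told apart. Across all genes, 0 of 9461 passed an adjusted p of 0.05 in limma (0% called), while before adjustment 136 higher and 132 lower genes had p under 0.05 (2.83%). limma-voom on the recovered reads also gave 0, and before adjustment 91 higher and 106 lower genes.

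The promoters of *Nlrp5*, *Padi6* and *Zbed3* are shown because these genes stand for the patterns described below, groups that did not overlap, a steady level and replicates that stood apart, and because their windows lie wholly upstream of the annotated transcripts. The windows are the 250 bases before the outermost RefSeq start on GRCm38.p6, at chr7:23385639-23385888 on the plus strand for *Nlrp5*, chr4:140742644-140742893 on the minus strand for *Padi6* and chr13:95323355-95323604 on the plus strand for *Zbed3*. Capitals mark the E-box CANNTG, the kind of site bound by the oocyte factor FIGLA with its partner TCF3, and the NOBOX elements TAATTG and TAATTA, on either strand.
Nlrp5: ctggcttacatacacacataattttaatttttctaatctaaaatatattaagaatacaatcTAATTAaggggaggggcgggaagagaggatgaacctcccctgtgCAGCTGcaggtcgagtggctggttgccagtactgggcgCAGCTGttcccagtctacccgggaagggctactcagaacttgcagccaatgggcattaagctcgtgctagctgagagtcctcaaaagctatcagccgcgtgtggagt
Padi6: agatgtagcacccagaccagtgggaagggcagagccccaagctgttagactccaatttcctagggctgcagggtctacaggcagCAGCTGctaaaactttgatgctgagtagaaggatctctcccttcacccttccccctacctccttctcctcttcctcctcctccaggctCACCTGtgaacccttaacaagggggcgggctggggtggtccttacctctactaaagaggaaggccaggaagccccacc
Zbed3: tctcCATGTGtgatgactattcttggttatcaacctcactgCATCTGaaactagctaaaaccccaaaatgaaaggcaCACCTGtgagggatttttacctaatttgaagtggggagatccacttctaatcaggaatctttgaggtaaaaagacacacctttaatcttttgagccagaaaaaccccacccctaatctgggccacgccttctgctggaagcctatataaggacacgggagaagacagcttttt
*Nlrp5* held 2 E-boxes and 1 NOBOX element, *Padi6* 2 E-boxes and *Zbed3* 3 E-boxes. *Khdc3* held 5 E-boxes, of which a pair overlapped, *Tle6* held 2, and *Ooep* held 1 together with 1 NOBOX element. For *Khdc3*, *Tle6* and *Ooep* the RefSeq start lay 562, 173 and 137 bases inside the annotated gene, so their windows overlap it. Of 32851 promoter windows of this length, 66.2% held an E-box, 31.8% 2 or more and 12.2% 3 or more, while 11.3% held a NOBOX element. An E-box is therefore common and a match is only a description of these letters. *Nobox*, whose protein binds the NOBOX element, was at 56.0 and 50.5 RPKM with HDACi 4b and 61.6 and 47.2 RPKM with DMSO. *Figla* was at 33.3 and 25.1 RPKM with HDACi 4b and 24.9 and 28.2 RPKM with DMSO. The groups overlapped for both factors. *Tcf3* was at 1.78 and 1.56 RPKM with HDACi 4b and 1.82 and 2.46 RPKM with DMSO, both treated libraries lying below both controls (limma adjusted p = 1.0), as for 14.5% of genes tested after scaling.

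The 6 transcripts differed widely in level, and the order at the top and at the bottom was the same in all 4 libraries. *Ooep* was the highest in every library and ranked 46 in the table, with a mean of 1529 RPKM. *Padi6* (165 RPKM), *Zbed3* (153 RPKM), *Nlrp5* (119 RPKM) and *Tle6* (107 RPKM) followed, and each of these 4 overlapped its neighbour in the order over the libraries. Those further apart did not all overlap. As deposited, *Padi6* (lowest library 155 RPKM) lay wholly above *Nlrp5* (highest 143 RPKM) and *Tle6* (highest 118 RPKM), and *Zbed3* (lowest 129 RPKM) lay above *Tle6*. *Ooep* was 9.26-fold above *Padi6* without overlap. *Khdc3* was lowest in every library, at 0.982 RPKM, 109-fold below *Tle6*. Its exons overlap another gene, as described below, and how reads there were counted is not given, so this fold is uncertain. The sum of the 6 levels was 1885 and 2436 RPKM with HDACi 4b and 2268 and 1707 RPKM with DMSO, of which *Ooep* made up 68.7% to 77.3%.

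**Figure D1:**
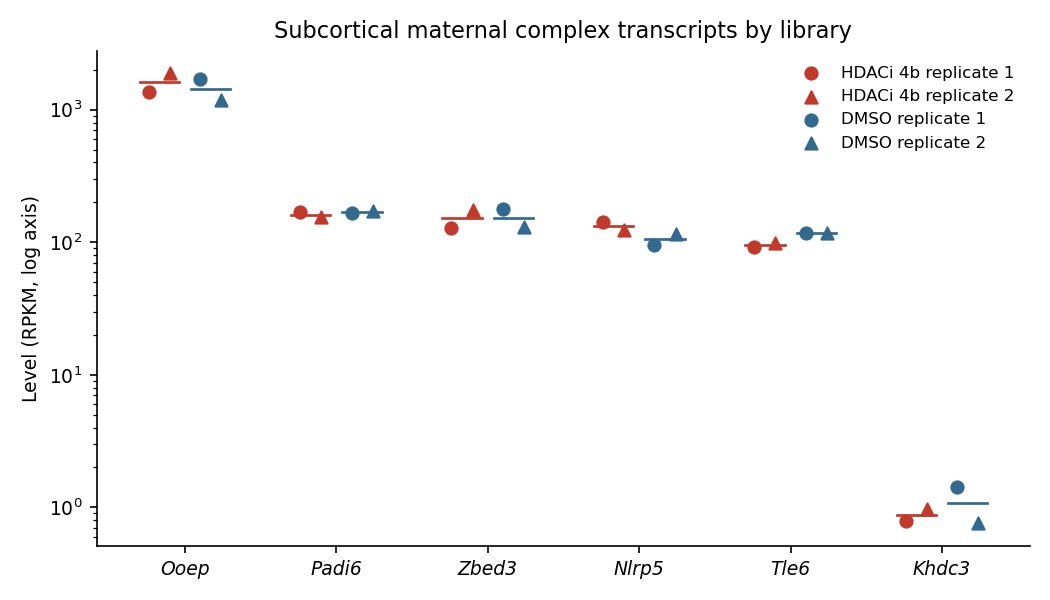
RPKM as deposited (log axis) of the 6 transcripts in each library, with HDACi 4b in red and DMSO in blue, circles for replicate 1, triangles for replicate 2 and bars for the group means (n = 2). *Ooep* lies at or above 1173 RPKM and *Khdc3* below 1.42 RPKM in every library, and the other 4 lie between 92.6 and 177 RPKM.

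Within the core, *Nlrp5* lay higher in both treated libraries, and *Ooep* had the largest standard error of the 5 members tested. *Nlrp5* (chromosome 7, 23385889 to 23441922, GRCm38) encodes an NLR family protein. It was at 143 and 123 RPKM in HDACi 4b oocytes, against 95.5 and 115 RPKM in DMSO oocytes. As deposited, both treated libraries lay above both controls, as for 6.6% of genes tested. The order was the same after scaling (139 and 133 scaled RPKM with HDACi 4b, at most 105 with DMSO). Of all genes tested, 13.6% had this order in scaled values. The log2 fold change was 0.41 (SE 0.18), which is 1.33-fold (95% interval 0.976 to 1.81), and limma gave an unadjusted p of 0.065 and an adjusted p of 1.0. Between 6550 and 10344 reads stood behind each value, so that the counting intervals were narrower than the distance between replicates. A transcribed pseudogene, *Nlrp5-ps*, was at 1.41 and 1.03 RPKM with HDACi 4b and 1.03 and 1.54 RPKM with DMSO, and reads that fit both copies could have been assigned to either.

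*Ooep* (chromosome 9, 78376109 to 78378725) encodes a small KH-domain protein. It was at 1351 and 1882 RPKM with HDACi 4b and at 1710 and 1173 RPKM with DMSO, and the groups overlapped. Its log2 fold change was 0.24 (SE 0.42), with a 95% interval of the fold from 0.582 to 2.4. With scaling, these libraries could therefore not bound the difference within 2-fold. Without scaling the log2 interval ran from -0.29 to 0.63. *Tle6* (chromosome 10, 81590904 to 81601073), a relative of the Groucho corepressors, was at 92.6 and 99.3 RPKM with HDACi 4b and at 117 and 118 RPKM with DMSO. As deposited, both treated libraries lay below both controls, as for 16.8% of genes tested. After scaling they overlapped (89.8 and 107 RPKM with HDACi 4b, 129 and 102 RPKM with DMSO). The log2 fold change was -0.23 (SE 0.21), with an interval of the fold from 0.598 to 1.22 and an adjusted p of 1.0.

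Among the partners, *Padi6* was the steadiest of the 6 transcripts. *Padi6* (chromosome 4, 140727355 to 140742643) was at 168 and 155 RPKM with HDACi 4b and at 167 and 171 RPKM with DMSO, and the highest library was 1.10-fold above the lowest. The log2 fold change was 0.0041 (SE 0.21), and the 95% interval of the fold ran from 0.707 to 1.42. *Zbed3* (chromosome 13, 95323612 to 95337841), whose protein is known to bind axin, was at 129 and 175 RPKM with HDACi 4b and at 177 and 130 RPKM with DMSO. Its group means were nearly equal, at 152 ± 32.7 and 154 ± 33.7 RPKM (SD, n = 2 each), while the replicates of each group stood apart. The fold was 1.04 (95% interval 0.595 to 1.82).

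**Figure D2:**
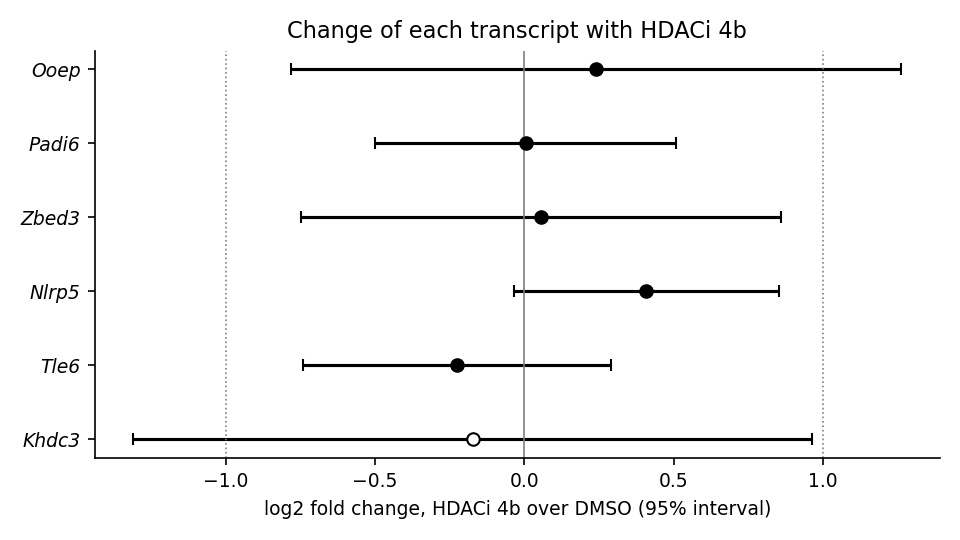
The log2 fold change of each transcript, HDACi 4b over DMSO, with its 95% interval from limma (n = 2 per group). Dotted lines mark 2-fold, the open circle marks *Khdc3*, which was fitted only without the filter on low values, and every interval includes 0.

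Of the 5 members tested, 0 passed the adjusted threshold. For 4 of the 5 the whole interval lay within 2-fold, against 81.2% of all genes tested, and *Ooep* was the exception. The median log2 fold change of the 6 members was 0.03, and that of all genes tested was -0.0019.

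*Khdc3* (chromosome 9, 73101836 to 73104438), which in the mouse protects early embryos from chromosome errors, was close to the limit of measurement. It was at 0.786 and 0.969 RPKM with HDACi 4b and at 1.41 and 0.760 RPKM with DMSO. These values rested on 24 and 28 reads with HDACi 4b and 41 and 21 reads with DMSO. The exact Poisson 95% intervals of the highest and the lowest library, 1.01 to 1.92 and 0.470 to 1.16 RPKM, overlapped, and they cover counting error only. Its mean lay just under the filter of 1 RPKM, and in the fit without the filter the log2 fold change was -0.17 (SE 0.46), with an interval of the fold from 0.404 to 1.95 and an adjusted p of 1.0 in limma. In GENCODE M21 the gene shares 790 of its 2050 exonic bases (38.5%) with *Gm20509*, a predicted gene on the same strand whose exons continue into *Rsl24d1*. *Gm20509* had no row in the table, and the rule by which reads on shared bases were counted is not given in the sources used here. Had all *Khdc3* reads come from the 1260 bases that are not shared, its level would have been 1.24 to 2.3 RPKM, 66.8-fold below *Tle6* in the mean. These bases include an exon at 0 to 368 bases from the annotated start, upstream of the RefSeq start at 562 bases. The part of the overlap in the low value was not tested. None of the other 5 members shares an exonic base with another annotated gene.

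**Figure D3:**
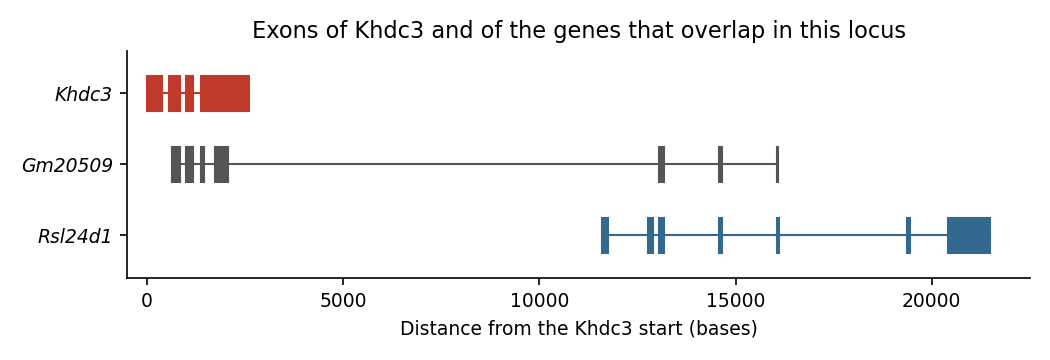
Exons (boxes) of *Khdc3*, *Gm20509* and *Rsl24d1* by distance in bases from the *Khdc3* start, from GENCODE M21. *Gm20509* shares 790 exonic bases with *Khdc3* and reaches into *Rsl24d1* downstream.

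In scaled values the replicates of a group lay further apart than the group means for *Ooep*, *Zbed3*, *Tle6*, *Padi6* and *Khdc3*, but not for *Nlrp5*. After scaling, *Ooep* lay 0.44 above its own mean on the log2 scale in HDACi 4b replicate 2 and 0.32 above in DMSO replicate 1, and below it by 0.20 in HDACi 4b replicate 1 and by 0.56 in DMSO replicate 2. *Zbed3* followed it, at 0.33 and 0.37 above in the same libraries, and this pair had the most similar profiles of the 15 pairs of members, with a distance of 0.20 over the 4 libraries. Scaled values of *Khdc3*, *Padi6* and *Tle6* also lay above their means in these 2 libraries. Both libraries had scaling factors below 1 (0.925 and 0.911). As deposited, *Padi6* was lowest in HDACi 4b replicate 2 (155 RPKM), and *Tle6* there (99.3 RPKM) lay below its mean of 107 RPKM. The part of the scaling in this likeness was not tested. *Nlrp5* had another order, above its mean in both HDACi 4b libraries and below it in both DMSO libraries. The mean profile of the 6 was -0.13 and 0.18 with HDACi 4b and 0.26 and -0.32 with DMSO. Of 3327 genes with at least 10 RPKM, the 5 nearest to this profile over the 4 libraries were *Gm14269*, *Higd2a*, *Ypel5*, *Gckr* and *Ndufaf5*, at distances of 0.023 to 0.045. *Higd2a* and *Ndufaf5* encode assembly factors of the mitochondrial respiratory chain. A profile of 4 points on a shared scaling separates few genes, so the likeness is a description.

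**Figure D4:**
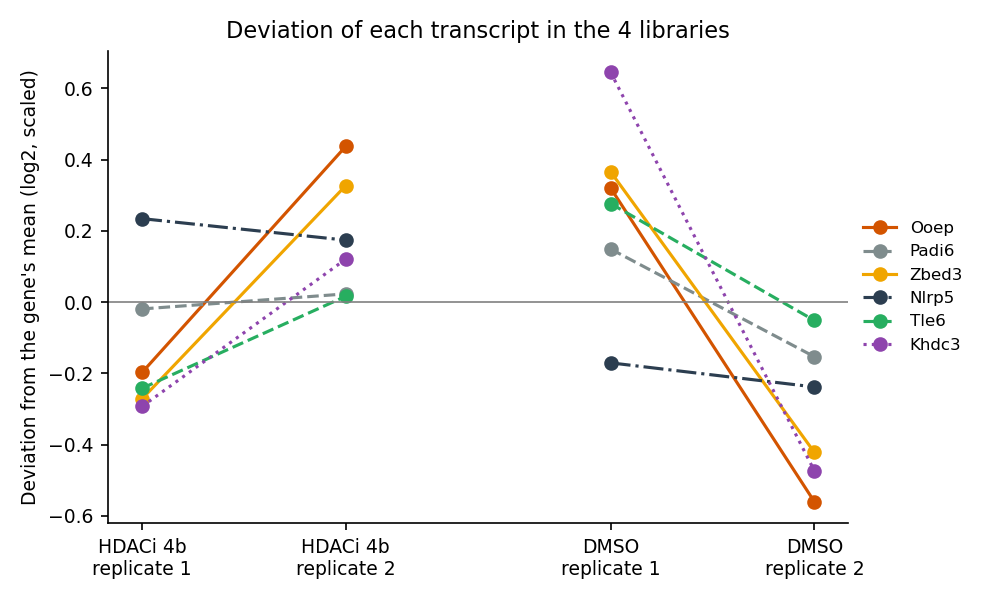
Deviation of each transcript from its own mean over the 4 libraries (log2 of scaled RPKM), with lines that only join the values of 1 gene within a group. *Ooep* and *Zbed3* are high in HDACi 4b replicate 2 and DMSO replicate 1, and *Nlrp5* is above 0 in both HDACi 4b libraries and below 0 in both DMSO libraries.

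Ratios between members in the same library do not depend on the scaling of libraries. *Nlrp5* stood at 1.55 and 1.24 times the level of *Tle6* with HDACi 4b, against 0.815 and 0.976 times with DMSO. It stood at 0.853 and 0.794 times *Padi6* with HDACi 4b, against 0.573 and 0.674 times with DMSO. Its ratios to *Ooep*, *Khdc3* and *Zbed3* overlapped (for *Zbed3* 1.11 and 0.702 with HDACi 4b, 0.538 and 0.887 with DMSO). Relative to the mean log2 level of the 6 members *Nlrp5* overlapped too, at 0.775 and 0.398 with HDACi 4b and -0.028 and 0.491 with DMSO. *Ooep* stood at 10.5 and 10.7 times *Zbed3* with HDACi 4b, against 9.64 and 9.04 times with DMSO. Of the 15 pairs, 6 did not overlap between the groups, against 28.4% of all pairs of expressed genes. An exact permutation test of 2 against 2 libraries cannot go below p = 0.333 (two-sided), so no ratio was tested.

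**Figure D5:**
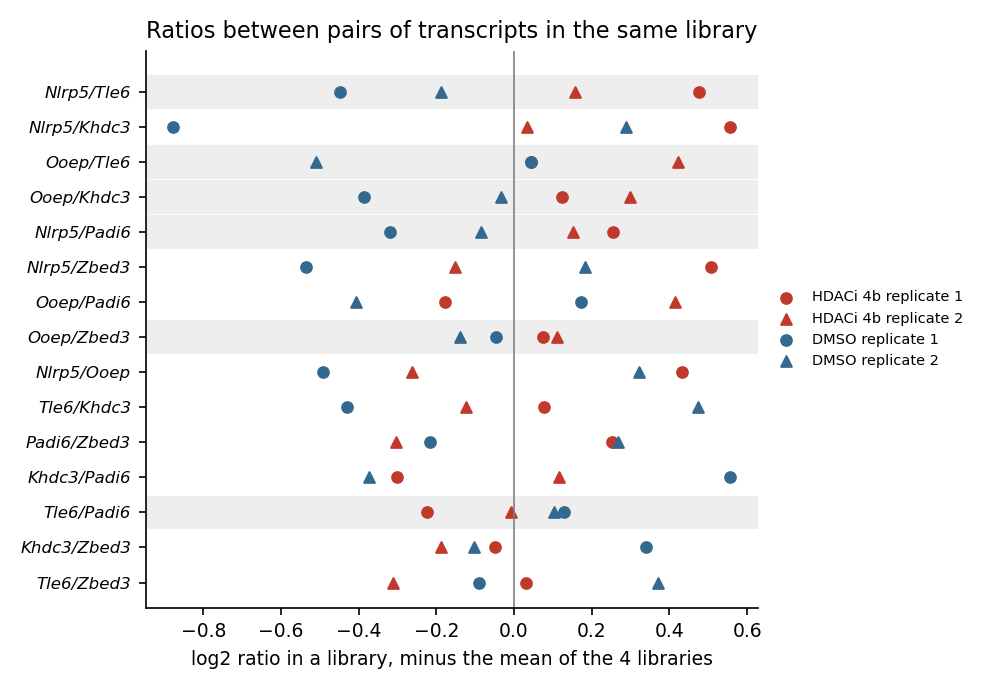
The log2 ratio of each pair of transcripts in a library, minus its mean over the 4 libraries, with HDACi 4b in red, DMSO in blue, circles for replicate 1 and triangles for replicate 2. Shaded rows are the 6 pairs of 15 whose groups do not overlap, and *Nlrp5*/*Tle6* has the largest shift of these 6.

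The protein partners of the complex were measured from a list of 12 genes, all of which were tested. The log2 fold change was positive for 8 and negative for 4, the median was 0.03, 0 passed and 10 had intervals within 2-fold. *Nlrp14*, an oocyte NLR gene, was at 1088 and 1209 RPKM with HDACi 4b and at 925 and 888 RPKM with DMSO (log2 fold change 0.41, SE 0.31, limma adjusted p = 1.0). *Nlrp2* and *Nlrp4f*, named after their values were seen, also had both treated libraries above both controls, as did *Nlrp5* and *Nlrp14*. *Nlrp4f* was at 202 and 222 RPKM with HDACi 4b and 177 and 192 RPKM with DMSO, and *Nlrp2* at 82.6 and 81.7 RPKM with HDACi 4b and 69.8 and 74.7 RPKM with DMSO. This order was found in 13.6% of all genes tested after scaling and in 6.6% as deposited. These are shares of single genes and do not allow for the choice of genes by their order. Other oocyte *Nlrp* genes were not examined and no list of this family was tested, so the order of these genes does not describe the family. Genes of this family resemble each other, and where reads fit more than 1 copy single levels are uncertain. *Ywhae*, a 14-3-3 adaptor, was at 527 and 403 RPKM with HDACi 4b and 431 and 449 RPKM with DMSO. *Prkaca*, the catalytic subunit of protein kinase A, which phosphorylates TLE6 in human oocytes, had the smallest p of the list. It was at 0.836 and 0.742 RPKM with HDACi 4b and 1.08 and 2.45 RPKM with DMSO, from 26 to 82 reads, and DMSO replicate 2 was the highest library. The log2 fold change was -0.90, with SE 0.38 and an adjusted p of 1.0 in limma.

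The nearest relatives of *Padi6*, *Tle6* and *Zbed3* were scarcely expressed. *Padi4*, the highest of the 3 other deiminases measured, was at 1.86 and 1.42 RPKM with HDACi 4b and 1.81 and 1.86 RPKM with DMSO, 90.3-fold to 109-fold below *Padi6* in the same library. *Padi1*, the next, stayed at or below 0.151 RPKM. *Tle4*, the highest of the 5 TLE relatives, was at 2.02 and 1.71 RPKM with HDACi 4b and 1.19 and 2.18 RPKM with DMSO, 60.1-fold below *Tle6*, and *Tle1* reached 0.920 RPKM at most. *Zbed4* was at 2.31 and 2.24 RPKM with HDACi 4b and 2.01 and 2.82 RPKM with DMSO, 65.2-fold below *Zbed3*, and *Zbed5* was at 1.77 and 1.70 RPKM with HDACi 4b and 2.09 and 1.94 RPKM with DMSO. These 3 lists had 1, 1 and 3 tested genes, of which 0 passed. Of the 4 KH-domain relatives of *Ooep* and *Khdc3*, *Dppa5a* and *Khdc1b* were abundant, while *Khdc1a* and *Khdc1c* did not exceed 21.3 RPKM. *Dppa5a* was at 1175 and 1106 RPKM with HDACi 4b and 997 and 1571 RPKM with DMSO, and *Khdc1b*, which has close copies and is therefore uncertain, at 662 and 716 RPKM with HDACi 4b and 850.4 and 791 RPKM with DMSO. All 4 KH-domain relatives had negative log2 fold changes, with a median of -0.10, and 0 passed. Of all genes tested 49.6% were positive, and after scaling the groups overlapped for each of the 4.

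Other maternal effect genes and the factors that drive oocyte transcription gave no call either. Of 20 maternal effect genes outside the complex 17 were tested, with 6 positive and 11 negative log2 fold changes, a median of -0.02 and 14 intervals within 2-fold. *Npm2*, the histone chaperone that remodels sperm chromatin, was at 1865 and 1857 RPKM with HDACi 4b and 2178 and 1563 RPKM with DMSO. *Dppa3*, which protects the maternal genome from demethylation, was at 1092 and 1320 RPKM with HDACi 4b and 1024 and 1047 RPKM with DMSO. Of 8 oocyte transcription factors 6 were tested, 4 positive and 2 negative, with a median of 0.05. *Taf4b*, a subunit of TFIID, had the smallest p of these, at 3.67 and 3.31 RPKM with HDACi 4b and 2.31 and 3.43 RPKM with DMSO. The direct targets of the inhibitor had mean levels at or below that of *Khdc3* and far below those of the other 5 members. *Hdac3* was at 0.450 and 0.229 RPKM with HDACi 4b and 0.404 and 0.608 RPKM with DMSO, and *Hdac1* at 1.15 and 0.989 RPKM with HDACi 4b and 0.636 and 1.08 RPKM with DMSO. *Hdac2*, at 25.5 and 27.5 RPKM with HDACi 4b and 22.9 and 34.3 RPKM with DMSO, was the most abundant class I deacetylase, and *Hdac8* lay between 2.43 and 3.07 RPKM.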

How the data were processed

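RNA of cultured denuded oocytes was sequenced in 4 libraries, 2 with HDACi 4b and 2 with DMSO, grouped by their labels. The labels give oocytes as the cell type but describe RNA extraction from ovaries. The authors deposited 1 table of RPKM values, 1 column per library, for which Bowtie 0.12.2 and the build mm8 are listed in the submitters' processing notes. For the counting step, neither tool, annotation nor strand setting is given in the sources used here. Whole reads were obtained for 22636 of 26631 rows (85.0%, tolerance 0.01 reads) at exonic lengths of GENCODE M21, which is on GRCm38, and all coordinates are from that annotation by gene name. Intervals from reads cover counting error only. The members and lists were chosen with earlier results of these data known.

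Values were divided by trimmed-mean factors (1.03 and 0.925 for HDACi 4b replicates 1 and 2, 0.911 and 1.15 for DMSO replicates 1 and 2; 30% of ratios and 5% of levels trimmed). Genes whose mean reached 1 RPKM (9461) were tested on log2(RPKM + 0.1) with limma 3.58.1 in R 4.3.3, with an intensity trend, no covariate, a two-sided test and Benjamini-Hochberg adjustment at 0.05. Fold changes on this scale understate those of low genes. Levels are as deposited unless called scaled. Profiles were compared by Euclidean distance of centred log2 values. The rule for named genes took the members, the class I deacetylases, in each list the 2 most abundant genes and the tested one with the smallest p, and the 5 nearest profiles, and the text describes those that carry a comparison. Reads of replicate libraries differed beyond sampling noise (median chi-square per gene 2.80 for HDACi 4b and 6.12 for DMSO). The expected reads came from the read totals alone, so differences that the scaling factors remove are included. Scaling, filter, pseudocount, tool, replicate block and each library were varied.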

Additional observations from a re-analysis of the deposited data

How the results depend on the processing

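No member passed an adjusted p of 0.05 in limma or limma-voom under any alternative run with all 4 libraries. Of 82 alternative values of the members' log2 fold changes, 71 kept their direction. The robust fit, the changed filters and the replicate block leave the fold change itself as it was, so their values could not turn. Of the 11 values that turned, 8 came on leaving out a library. Changes of direction concerned values near 0 or libraries left out. *Padi6* became -0.064 and *Zbed3* -0.013 without scaling, and *Padi6* became -0.0011 with limma-voom on recovered reads. Leaving out each library in turn gave -0.15 to 0.16 for *Padi6*, -0.34 to 0.45 for *Zbed3*, -0.20 to 0.68 for *Ooep* and, without the filter on low values, -0.73 to 0.39 for *Khdc3* (0.035 without HDACi 4b replicate 1), which was tried after its level was known. The lowest value of *Padi6*, *Zbed3*, *Ooep* and *Khdc3* came without DMSO replicate 2 and the highest without DMSO replicate 1. *Nlrp5* ranged from 0.37 to 0.44 and *Tle6* from -0.39 to -0.06. The median of the 6 members ranged from -0.27 without DMSO replicate 2 to 0.41 without DMSO replicate 1. The count of intervals within 2-fold, 4 of 5, was 5 of 5 without scaling. On leaving out a library it ranged from 1 without HDACi 4b replicate 2 to 3 without either DMSO library, with fewer samples in each fit. Across all genes the count of 0 was kept except without HDACi 4b replicate 2, where 5 genes passed, *Ighd2-7* higher and *Krt18*, *Calcoco2*, *Gm22107* and *Gm24975* lower, named after their values were seen. The replicate numbers pair nothing in the labels, and the deviations of same-numbered libraries correlated with r = 0.045 across genes. With the replicate block 0 genes passed and 2 of 5 members had intervals within 2-fold. The order of the members by level was the same with and without scaling. Values of *Khdc3* are limited by its 21 to 41 reads.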
